A study of Mus musculus with 10 samples.

Results

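Flow-sorted brainstem microglia of GFP reporter mice were compared with flow-sorted brainstem microglia of wild-type mice, gene by gene, over the autosomes. The FPKM columns of the 3 sorted GFP and the 3 sorted wild-type libraries, of 10 libraries in the series, were used, and each gene's chromosome was read from its locus. Of the 37447 genes in the deposited table, 34791 lay on the 19 autosomes, and 11392 of these reached an FPKM of 1 in 3 or more of the 6 libraries and were tested. FPKM is a count of sequenced fragments scaled to transcript length and to the mapped fragments of the library, which puts genes of different length on 1 scale. For loci shorter than the fragments that scale differed between the groups, and levels there are not comparable between libraries.

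All mice were 6 weeks old, and the labels give no treatment. The wild-type group (strain label C57BL/6) was 3 male mice. The GFP group was 2 female mice (replicates 1 and 3) and 1 male mouse (replicate 2), and no strain is given for it. The labels do not name the GFP line, the promoter that drives GFP or the number of reporter alleles, so the groups differ in genotype, in part in sex, and possibly in strain background, and these cannot be told apart by group alone. Both groups were dissociated, enriched on a Percoll gradient, sorted, taken up in TRIzol and amplified (Ovation RNA-Seq), and fragments of 300 to 500 bases were then selected and sequenced. The labels call the libraries biological replicates, and the files give no read counts, so depth is unknown and no counting intervals are given.

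Microglia are the resident macrophages of the brain and spinal cord. They depend on the growth factor receptor Csf1r and on the transcription factor Spi1, and they carry the fractalkine receptor Cx3cr1, through which they sense the neuronal chemokine Cx3cl1. Fluorescent reporters for these cells are commonly placed under the control of a microglial gene, Cx3cr1 among them, and whether that was done here is not given in the sources used here. The comparison describes where gene levels differed between the 2 sorted preparations of these cells.

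The sorted cells of both groups carried the microglial markers at high level. P2ry12, a purinergic receptor that guides microglial processes, stood at 353 ± 4.11 FPKM in the GFP libraries and 340 ± 21.1 in the wild-type libraries (SD, n = 3 each). Other markers had lower GFP means, such as Tmem119 (437 ± 45.7 against 602 ± 66.4) and Olfml3 (224 ± 27.6 against 304 ± 47.8). Of the longer microglial list described below, 31 of 40 tested genes were below 0 and 9 above. Among markers of other cells, the T-cell gene Cd3e and the endothelial gene Cldn5 were listed at 0 in all 6 libraries. Others were present. Pecam1, also listed as endothelial, was at 18.1 to 22.8 FPKM in the GFP libraries and 13.3 to 21.0 in the wild-type libraries. The neutrophil gene S100a8 was at 5.42 FPKM in wild-type replicate 1 and at 0 in every other library. Mbp, a myelin protein of oligodendrocytes, was at 2.04 to 2.91 FPKM in the GFP libraries and 2.23 to 3.60 in the wild-type libraries.

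The libraries were alike across genes. On log2(FPKM + 1), Pearson correlations over the tested autosomal genes, which are not independent replicates, were 0.966 to 0.968 within the GFP group, 0.956 to 0.975 within the wild-type group and 0.942 to 0.971 between groups. Wild-type replicate 3 stood somewhat apart. It was the highest of the 6 libraries at 33.3% of the tested genes and the lowest at 22.1%, and its correlations with the GFP libraries (0.942 to 0.949) were the lowest between groups.

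Very few autosomal genes passed the adjusted threshold between the 2 preparations. With limma and Benjamini-Hochberg adjustment, 9 of 11392 genes had an adjusted p under 0.05 (0.079%), of which 2 were higher in the GFP libraries (0.0176%) and 7 were lower (0.0614%). The median log2 difference (GFP minus wild-type) was 0.00, and the middle 50% of genes lay between -0.16 and 0.16. Without adjustment, 825 genes (7.24%) were higher and 666 genes (5.85%) were lower at a p under 0.05. The groups did not overlap at 2350 genes (20.6%). The standard error of a difference was 0.15 for the median gene, so small differences could not be resolved with 3 libraries a group. The few calls therefore do not show that the other genes were alike, and 1491 genes in all had an unadjusted limma p under 0.05. The number called higher was 4 without wild-type replicate 1 and 7 without wild-type replicate 3, and the number called lower was 4 without GFP replicate 3.

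**Figure D1:**
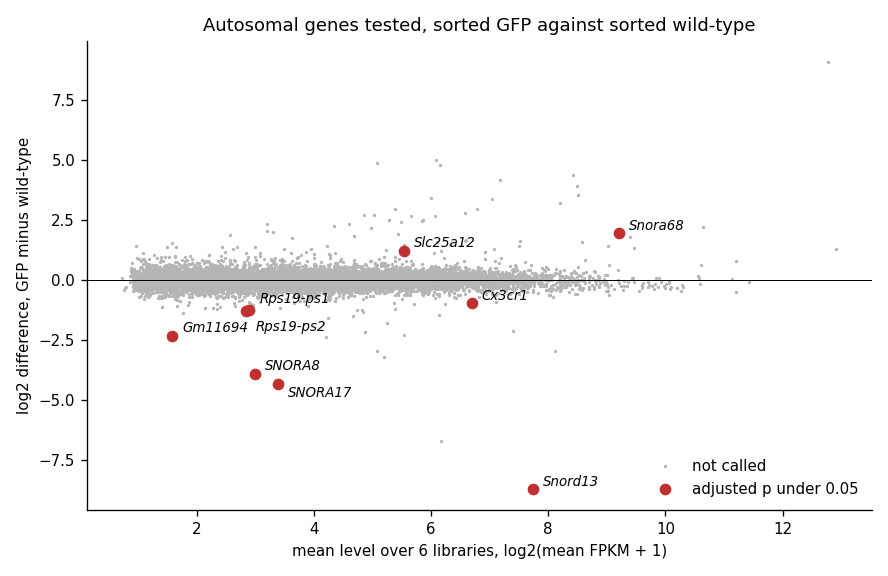
The log2 difference (GFP minus wild-type, vertical axis) of the 11392 tested autosomal genes is plotted against their mean level over the 6 libraries as log2(mean FPKM + 1), with the 9 genes at an adjusted p under 0.05 in red. Most genes lie close to 0 at every level, and the called genes include Cx3cr1 and Snord13 below the line and Slc25a12 and Snora68 above it.

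Cx3cr1, the fractalkine receptor (ENSMUSG00000052336, mm9 chr9:119957811-119977400), was lower in GFP microglia. Its FPKM was 72.5, 64.6 and 70.4 in GFP replicates 1, 2 and 3 and 123, 139 and 146 in wild-type replicates 1, 2 and 3. The highest GFP library was well below the lowest wild-type library. The group means were 69.2 ± 4.10 and 136 ± 11.7 (SD, n = 3 each), a wild-type level 1.97 times the GFP level, and the log2 difference was -0.97 (SE 0.11, limma adjusted p = 0.0179). In the authors' deposited table Cx3cr1 also carried a significant mark, with a log2 fold of 0.92 (wild-type over GFP) and a q of 1.22e-05. The 4 laser-captured GFP libraries of the series, prepared by another extraction and not tested here, held 25.5, 51.3, 61.5 and 22.3 FPKM.

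The size of the Cx3cr1 difference moved little with the choice of libraries, while its adjusted p did. Leaving out 1 library at a time gave log2 differences from -1.03 to -0.91. The limma adjusted p was then 0.0941, 0.0907 and 0.0890 without GFP replicate 1, 2 or 3 and 0.0860 without wild-type replicate 2, and it stayed under 0.05 without wild-type replicate 1 (0.0429) or 3 (0.0204). Sex was part of the contrast, because every wild-type library was male. The 1 male GFP library had 64.6 FPKM, below both female GFP libraries, and set alone against the 3 wild-type males it gave a log2 difference of -1.06 (limma adjusted p = 0.452, assuming that the lone library varies like the others). With sex as a covariate the difference was the same -1.06 by construction, because it too rests on that 1 GFP library (limma adjusted p = 0.176).

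No other gene in the neighbourhood of Cx3cr1 was called. Of 18 other tested genes whose midpoints lie within 1 Mb, 0 were called and 2 had an unadjusted limma p under 0.05. Csrnp1, a nuclear protein gene next to Cx3cr1, had 2.39, 2.43 and 2.49 FPKM in the GFP libraries and 2.56, 2.59 and 2.11 in the wild-type libraries. Slc25a38, a mitochondrial glycine carrier needed for heme synthesis, had 7.26, 7.09 and 6.64 against 8.71, 9.16 and 9.62 FPKM (log2 difference -0.35, limma adjusted p = 0.312). The other was SNORA73, a small nucleolar RNA locus, at 13.03, 17.5 and 9.60 against 7.59, 6.39 and 7.25 FPKM (log2 difference 0.80, limma adjusted p = 0.252). Within 5, 10 and 20 Mb, 60, 92 and 198 other genes were tested and 0 were called with limma. With 0.079% of all tested genes called, a count of 0 in windows of this size says little about their genes. Of the genes in these windows, 5, 13 and 27 (8.33%, 14.1% and 13.6%) had an unadjusted p under 0.05, against 14.0% on chromosome 9. The median log2 difference over these windows was 0.01, 0.02 and -0.02.

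Slc25a12, which encodes a mitochondrial carrier that exchanges aspartate for glutamate (ENSMUSG00000027010, mm9 chr2:71109120-71205806), was higher in GFP microglia. Its FPKM was 61.7, 63.2 and 66.1 in the GFP libraries and 28.3, 26.4 and 25.6 in the wild-type libraries. Within each group the 3 values were close, and the groups were far apart. The means were 63.7 ± 2.25 and 26.8 ± 1.41 (SD, n = 3 each), a ratio of 2.38, with a log2 difference of 1.22 (SE 0.10, limma adjusted p = 0.0020). Any 1 library could be left out with an adjusted p of 0.0025 to 0.0211.

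The male GFP library, at 63.2 FPKM, lay between the 2 female GFP libraries for Slc25a12. Against the 3 wild-type males alone it gave a log2 difference of 1.21, and the call was not kept. With sex as a covariate the difference was the same 1.21 by construction, again from that 1 GFP library. The call was not kept there either (limma adjusted p = 0.0695). The authors' deposited table gives Slc25a12 a log2 fold of -1.40 (wild-type over GFP) with a q of 0.856, without a significant mark. In the laser-captured GFP libraries it ranged from 18.4 to 132.4 FPKM.

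Around Slc25a12, 11 other genes were tested within 1 Mb, 0 were called and 1 had an unadjusted p under 0.05. That gene was Metap1d, a mitochondrial methionine aminopeptidase, whose midpoint lies 0.17 Mb from that of Slc25a12. Metap1d had 58.4, 65.2 and 62.1 FPKM in the GFP libraries and 45.8, 41.7 and 30.6 in the wild-type libraries, without overlap (log2 difference 0.66, limma adjusted p = 0.245). Gm13641, a predicted gene whose locus overlaps Slc25a12, had 39.0, 34.2 and 34.1 against 38.7, 30.1 and 23.9 FPKM, with overlapping groups. Itga6, an integrin subunit, had 200, 203 and 193 against 188, 192 and 212 FPKM. Within 5, 10 and 20 Mb of Slc25a12, 52, 70 and 134 other genes were tested and 0 were called. Here too a count of 0 says little, with 0.079% of all tested genes called. Of the genes in these windows, 12, 13 and 22 (23.1%, 18.6% and 16.4%) had an unadjusted limma p under 0.05, against 13.9% on chromosome 2. The median log2 difference over these windows was 0.13, 0.09 and 0.08. Why the share was higher near Slc25a12 was not tested.

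**Figure D2:**
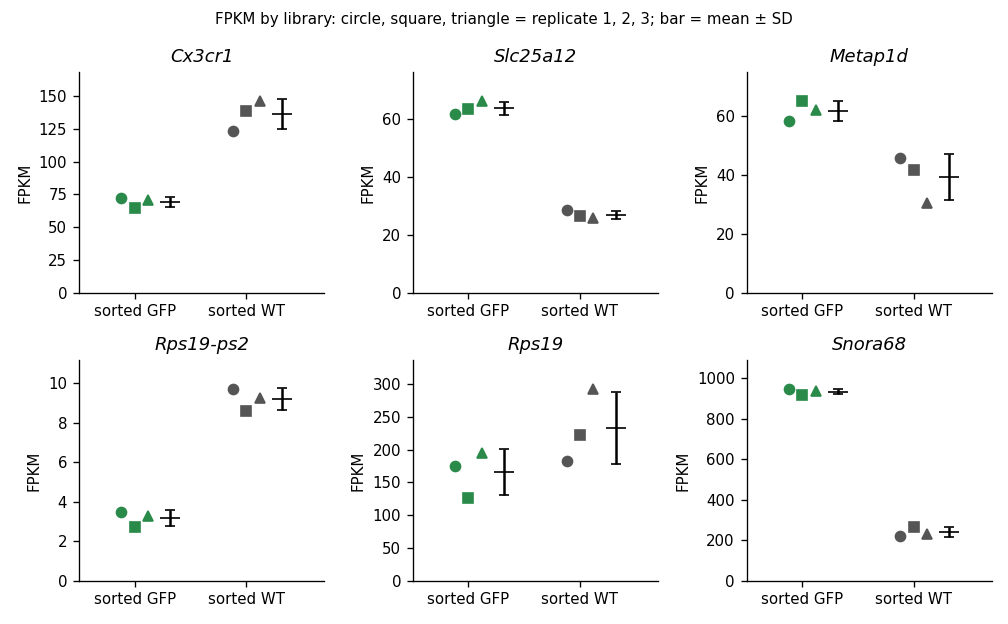
FPKM (vertical axes, from 0) in each sorted GFP (green) and sorted wild-type (grey) library is shown for 6 genes, with replicates 1, 2 and 3 as circle, square and triangle and the mean ± SD beside them (n = 3). The groups do not overlap for Cx3cr1, Slc25a12, Metap1d, Rps19-ps2 and Snora68, while for Rps19 the GFP range (127 to 195) overlaps the wild-type range (183 to 292).

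The other 7 called loci are pseudogenes, a predicted gene and small RNAs, which the naming rule leaves out. They are named here after their values were seen. Rps19-ps1 and Rps19-ps2, processed pseudogenes of the small ribosomal subunit gene Rps19 (mm9 chr14:53833387-53833842 and chr14:53522450-53522905), were lower in GFP microglia. Rps19-ps1 had 3.72, 2.78 and 3.81 FPKM in the GFP libraries and 9.70, 8.69 and 10.0 in the wild-type libraries (log2 difference -1.24, SE 0.15, limma adjusted p = 0.0201). Rps19-ps2 had 3.47, 2.69 and 3.29 against 9.70, 8.61 and 9.25 FPKM (log2 difference -1.30, SE 0.14, limma adjusted p = 0.0098). In both, the wild-type libraries stood close together and above every GFP library.

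The values of the 2 pseudogenes are not separate measurements. In the GENCODE vM21 transcripts (GRCm38, matched by symbol), the 438 bases of Rps19-ps1 and Rps19-ps2 are identical, and both differ from the Rps19 transcript at 8 of 438 bases (98.2% identity). The 90 bases with the most differences are shown because fragments over differing bases can be told apart as Rps19 or pseudogene, while no fragment within these transcripts separates the 2 pseudogenes. The 5 differing bases of the stretch are in capitals, and its first base is at position 614 of transcript Rps19-203 and position 317 of the pseudogene.
Rps19: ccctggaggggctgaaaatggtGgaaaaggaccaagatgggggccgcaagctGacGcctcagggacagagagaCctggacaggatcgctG
Rps19-ps1: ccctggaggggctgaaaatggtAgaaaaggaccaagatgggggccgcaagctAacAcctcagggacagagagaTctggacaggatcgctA

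How fragments that map to several copies were assigned is not given in the sources used here, so the pseudogene values are uncertain. Rps19 itself had 175, 127 and 195 FPKM in the GFP libraries and 183, 222 and 292 in the wild-type libraries (log2 difference -0.49, limma adjusted p = 0.374), with overlapping groups and the highest value in wild-type replicate 3. The call for Rps19-ps1 was lost without GFP replicate 1, 2 or 3 or wild-type replicate 1 or 2. That for Rps19-ps2 was lost without GFP replicate 3 (limma adjusted p = 0.0598) or wild-type replicate 1 (0.0729) or 2 (0.0544).

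The remaining 5 called loci are shorter than 300 bases, below the size range of the sequenced fragments. Of 191 tested autosomal loci under 300 bases, 5 were called, and of 11201 longer ones 4 were. Short loci also held 38 of the 40 tested genes whose log2 difference was beyond 2 in size, 26 higher and 12 lower in the GFP libraries. The median log2 difference of the 191 short loci was 0.51, against 0.00 for the longer ones.

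The short loci include small nucleolar RNAs, which guide the chemical modification or processing of ribosomal RNA and are mostly cut from the introns of host genes. Snora68 (ENSMUSG00000077563, mm9 chr8:73419658-73419788) is of the H/ACA class, and Snord13 (ENSMUSG00000088252) is of the C/D class and guides an acetylation of small subunit ribosomal RNA. Their loci are 131 and 104 bases long. The GENCODE vM21 sequence of Snora68 (GRCm38) is shown because so short a length bears on how FPKM was scaled. Capitals mark, on the transcript's own strand, the ANANNA match and the last ACA.
Snora68: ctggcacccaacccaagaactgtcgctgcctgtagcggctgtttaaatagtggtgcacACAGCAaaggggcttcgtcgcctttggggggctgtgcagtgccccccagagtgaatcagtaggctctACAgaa

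Snora68 was the other called locus that was higher in GFP microglia. It had 947, 920 and 939 FPKM in the GFP libraries and 221, 266 and 233 in the wild-type libraries (log2 difference 1.96, SE 0.12, limma adjusted p = 0.000259). The 3 GFP values were close to each other and far above every wild-type value.

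The FPKM scale of loci this short differed between the groups. Among 429 autosomal loci of 130 to 134 bases, between 22 and 28 were above 0.01 FPKM in each library. The lower quartile of these values was 52.7, 60.9 and 43.1 FPKM in the GFP libraries and 19.7, 20.6 and 18.03 in the wild-type libraries, a ratio of mean quartiles of 2.68. Many loci of a library lay on this same low value. In units of its library's lower quartile, Snora68 stood at 17.97, 15.1 and 21.8 in the GFP libraries and 11.2, 12.9 and 12.9 in the wild-type libraries, a ratio of means of 1.48 against 3.90 in FPKM. For longer genes the low values were on a like scale in the groups. Over genes of at least 1000 bases with values under 0.2 FPKM, the most frequent ratio to wild-type replicate 2 was 0.98, 0.98 and 0.83 in the GFP libraries and 0.95 and 0.74 in wild-type replicates 1 and 3.

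**Figure D3:**
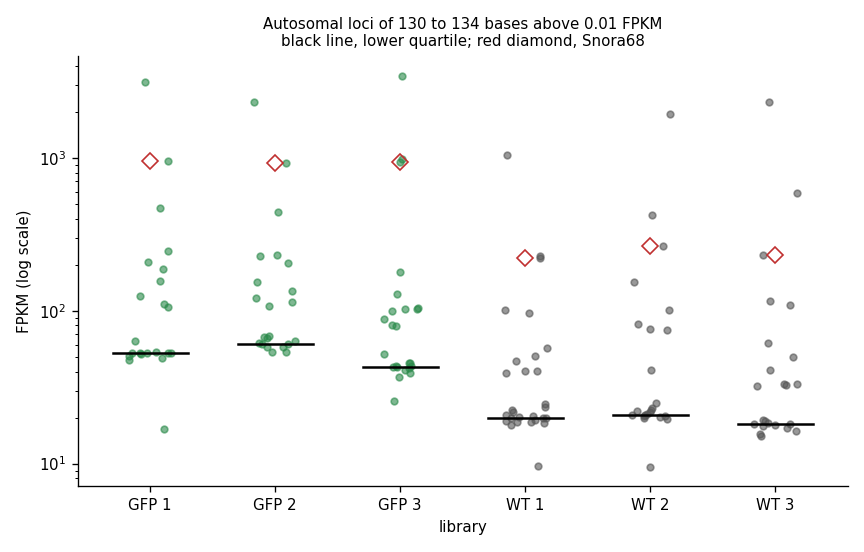
FPKM (log axis) of autosomal loci of 130 to 134 bases that were above 0.01 FPKM is shown for each library, with GFP libraries in green and wild-type libraries in grey. The lower quartile (black line) lies between 43.1 and 60.9 in the GFP libraries and between 18.03 and 20.6 in the wild-type libraries, and Snora68 (red diamond) lies far above it in all 6.

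The 4 short loci that were lower in the GFP libraries were all listed at 0 in the 3 of them. SNORA17 (ENSMUSG00000077695, 132 bases, inside Mctp1) had 20.1, 20.5 and 16.4 FPKM in the wild-type libraries, next to lower quartiles of 19.7, 20.6 and 18.03 for loci of that length. SNORA8 (137 bases, inside Taf1d) had 14.8, 15.1 and 12.2 FPKM. Those of SNORA8 were, in wild-type replicates 1 and 3, the lowest values above 0.01 of any autosomal locus of its length. Gm11694, a predicted gene of 159 bases, had 4.24, 4.28 and 3.48 FPKM, and in wild-type replicates 2 and 3 it was the only 1 of 13 autosomal loci of its length above 0.01 FPKM.

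SNORA17, SNORA8 and Gm11694 shared the same proportions between the wild-type libraries. Relative to wild-type replicate 2, they stood at 0.98, 0.98 and 0.99 in replicate 1 and at 0.80, 0.80 and 0.81 in replicate 3. Snord13 had 341, 358 and 582 FPKM, and only 1, 3 and 1 of 116 autosomal loci of 104 bases were above 0.01 FPKM in these libraries. All 4 of these loci reached the filter only through the wild-type libraries, since every GFP value was 0. Their adjusted p passed under all alternatives in which they were tested, but with 1 group at 0 throughout this adds no support. Since a value of 0 in a table without counts can be a failed estimate, no fold is given for them.

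The host genes of SNORA8 and SNORA17 did not pass the test. Taf1d, a subunit of the RNA polymerase I initiation factor, had 23.8, 23.1 and 25.7 FPKM in the GFP libraries and 20.5, 23.02 and 25.2 in the wild-type libraries. Mctp1, a calcium-binding membrane protein gene, had 67.5, 70.0 and 71.4 against 73.8, 57.8 and 60.8 FPKM. Leaving out all loci under 300 bases, an alternative chosen after these values were seen, left 4 called autosomal genes, namely Cx3cr1, Slc25a12, Rps19-ps1 and Rps19-ps2.

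Sex was tested as a second term over the same 6 libraries. Because all wild-type libraries were male, the group difference beside it is that of GFP replicate 2 against the wild-type males. Each list median given with sex as a covariate therefore rests on 1 GFP library. The sex term itself rests on 1 male against 2 female GFP libraries. At this term 5 autosomal genes (0.0439%) had an adjusted p under 0.05, all predicted genes or small RNAs (named here after their values were seen), and in each of them the male GFP library, replicate 2, was the highest of the 6. SNORA48 was listed at 0 in GFP replicates 1 and 3 and had 108 FPKM in GFP replicate 2, against 19.2, 19.4 and 23.5 in the wild-type males. AC153918.1 was likewise at 0, 92.2 and 0 FPKM, against 36.2, 37.3 and 30.2. For 2210012G02Rik the values were 49.3, 222 and 50.8 against 32.6, 37.6 and 34.8 FPKM, so the male GFP library was above the wild-type males as well as the female GFP libraries. With sex in the fit, 9 autosomal genes were called between the groups, of which 5 were shared with the calls made without it.

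The listed microglial genes were mostly a little below 0 in GFP microglia. Of 40 tested members, 0 were called higher and 1 was called lower, Cx3cr1, and 7 were below 0 and 0 above 0 at an unadjusted p under 0.05. Their median log2 difference was -0.18, against 0.00 over all tested autosomal genes. Of all those genes 0.079% were called, and 7.24% were above and 5.85% below 0 at an unadjusted limma p under 0.05. Tmem119, a membrane protein used as a microglial marker, had 489, 403 and 418 FPKM in the GFP libraries and 539, 596 and 671 in the wild-type libraries (limma adjusted p = 0.277). Spi1, listed under its older symbol Sfpi1 and encoding the PU.1 transcription factor, had a log2 difference of -0.39 (limma adjusted p = 0.320). The median of the list was -0.05 without wild-type replicate 3 and -0.35 with sex as a covariate, and 2 members were below 0 at an unadjusted p under 0.05 without GFP replicate 2.

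Genes for 4 functions of the microglial surface and lysosome held 1 called gene. With 0.079% of all tested genes called, a count of 0 in lists this small says little about their members. The counts at an unadjusted limma p under 0.05 are given beside each list, where 7.24% of all tested genes were above and 5.85% below 0. Among 8 tested chemokine receptors 1 was called, Cx3cr1, 3 were below 0 at an unadjusted p under 0.05, and the median was -0.32. Of 18 Toll-like receptor pathway genes 0 were called (2 above and 1 below 0 unadjusted), with a median of 0.03 that lay between -0.05 and 0.06 with 1 library left out. Of 16 complement and Fc receptor genes 0 were called (0 above and 2 below 0 unadjusted), with a median of -0.12. Without wild-type replicate 3 that list had 8 members above and 8 below 0, without GFP replicate 2 its median was -0.02, and with sex as a covariate it was -0.24. Of 34 lysosomal genes 0 were called (1 above and 5 below 0 unadjusted) and 31 were below 0, with a median of -0.23 that became -0.10 without wild-type replicate 3, and the unadjusted count of 5 below 0 became 2 without GFP replicate 2 and 8 without wild-type replicate 2. Ctsd, a lysosomal protease, had 1014, 901 and 977 FPKM in the GFP libraries against 1194, 1074 and 998 in the wild-type libraries.

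Heat shock and chaperone genes were all lower in the mean of the GFP libraries, with none past the adjusted threshold. Of 24 tested members 0 were called, where 0.079% of all tested genes were, and 24 were below 0. At an unadjusted p under 0.05, 13 were below 0, where 5.85% of all tested genes were. The median log2 difference was -0.38, and it was -0.33, with 23 members below 0, without wild-type replicate 3. The unadjusted count of 13 below 0 became 8 without GFP replicate 1 or 2. The summed FPKM of the list was 2133 to 2528.5 in the GFP libraries and 2851 to 3493 in the wild-type libraries, without overlap. Taken singly, 20.6% of all tested genes did not overlap. Hspa8, the constitutive cytosolic Hsc70, had 690, 502 and 705 FPKM against 686, 877 and 1036 (limma adjusted p = 0.380). Hsp90b1, the Hsp90 of the endoplasmic reticulum, had 312, 318 and 319 against 440, 379 and 427 FPKM (log2 difference -0.39, SE 0.11, limma adjusted p = 0.271). Hspa5, the main chaperone of the endoplasmic reticulum, had 310, 233 and 270 against 291, 448 and 414 FPKM (limma adjusted p = 0.346).

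Inflammatory and early response genes gave no calls, where 0.079% of all tested genes were called. Of 21 tested cytokines and chemokines 0 were called (0 above and 4 below 0 unadjusted) and 21 were below 0, with a median of -0.24, and without wild-type replicate 3 the number below 0 was 18, of which 1 unadjusted, and the median -0.17. Ccl3 had 85.0, 65.5 and 104 FPKM in the GFP libraries and 76.4, 140 and 126 in the wild-type libraries, and Ccl12 had 116, 98.6 and 152 against 115, 154 and 168. Of 23 immediate early genes 0 were called (1 above and 1 below 0 unadjusted, median -0.28). Their median was -0.53, with 9 below 0 unadjusted, without wild-type replicate 1, -0.10 without wild-type replicate 2, -0.16 without GFP replicate 2 and -0.48 with sex as a covariate. Jun, a subunit of the AP-1 transcription factor, had 795, 639 and 876 against 700, 1158 and 1220 FPKM. Wild-type replicate 1 was the lowest wild-type library for these 3 genes. For NF-kappaB feedback genes 0 of 19 were called (0 above and 3 below 0 unadjusted, median -0.19), and Cflar, an inhibitor of caspase-8, had 315, 322 and 297 against 290, 282 and 223 FPKM. Of 35 interferon response genes 0 were called (4 above and 1 below 0 unadjusted, and 1 above without GFP replicate 3), and the median was 0.04, and -0.05 with sex as a covariate.

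Disease-associated and antigen-presenting genes gave no calls, where 0.079% of all tested genes were called. Of 23 disease-associated microglial genes 0 were called (1 above and 6 below 0 unadjusted) and 19 were below 0 (median -0.29, and -0.12 without wild-type replicate 3), and the unadjusted count of 6 below 0 became 2 without GFP replicate 2 and 9 without wild-type replicate 2. Apoe, a lipid transport protein, had 245, 286 and 297 FPKM against 393, 289 and 593, and Trem2, a lipid-sensing receptor, had 409, 320 and 553 against 565, 437 and 767. Of 22 antigen presentation genes 0 were called (2 above and 4 below 0 unadjusted) and the median was -0.05. That median was -0.12 without GFP replicate 3 or wild-type replicate 1, -0.02 without wild-type replicate 3, and -0.27, with 7 members above and 15 below 0, with sex as a covariate. B2m, the light chain of class I molecules, had 1523, 1513 and 1757 against 1340, 1400 and 1480 FPKM.

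Genes of protein synthesis and energy metabolism also lacked calls, where 0.079% of all tested genes were called. Of 46 cytosolic ribosomal genes 0 were called, 41 were below 0 and 11 were below 0 at an unadjusted p under 0.05, and the median of -0.30 became -0.18 without wild-type replicate 3 and -0.50 with sex as a covariate. The unadjusted count of 11 below 0 became 23 without GFP replicate 3, 17 without wild-type replicate 1, 2 without GFP replicate 2, 4 without GFP replicate 1 and 5 without wild-type replicate 3. Rps23 had 1396, 1248 and 1767 FPKM in the GFP libraries and 1460, 1471 and 1936 in the wild-type libraries. Of 39 nuclear genes of mitochondrial respiration 0 were called (2 above and 5 below 0 unadjusted, median -0.12), and the median was 0.01 without wild-type replicate 3, 0.04 without GFP replicate 2, -0.25 without wild-type replicate 2 and -0.36 with sex as a covariate. Of 23 lipid handling genes 0 were called (0 above and 2 below 0 unadjusted, median -0.17), and the median was -0.08 without wild-type replicate 3 and the unadjusted count of 2 below 0 became 6 without wild-type replicate 2 and 0 without GFP replicate 2. Of 19 cell cycle genes 0 were called (3 above and 0 below 0 unadjusted), and the median of 0.13 was -0.02 when an FPKM of 5 was required and 0.00 without GFP replicate 1. Of 21 histone genes 0 were called (2 above and 0 below 0 unadjusted), and the median of 0.05 was -0.19 with sex as a covariate, -0.06 without GFP replicate 3 and 0.17 without GFP replicate 2.

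Markers of other cell types were scarce and uneven. Over all tested genes 0.079% were called, and 7.24% were above and 5.85% below 0 at an unadjusted limma p under 0.05. Counts of 0 called in lists this small therefore say little about their members. Of 23 autosomal oligodendrocyte genes 6 were tested, all below 0 and 0 called (2 unadjusted), and the list's summed FPKM was 230 to 262 in the GFP libraries and 267 to 456 in the wild-type libraries, with Mog under 1 in all 6. Trf, the iron carrier transferrin, made up most of that sum (227, 199 and 230 against 252, 230 and 401 FPKM). Of 20 astrocyte genes 5 were tested, all above 0 (4 with quantile normalization) and 0 called (2 unadjusted). Their median was 0.36, and 0.08 over 3 genes when an FPKM of 5 was required. The sum was 467 to 523 against 424 to 486 FPKM, most of it Glul (383, 394 and 419 against 413, 405 and 323). Gfap was at most 0.158 FPKM. Aqp4, another astrocyte marker, had 2.33, 2.03 and 2.43 against 1.40, 1.30 and 0.808 FPKM, without overlap (limma adjusted p = 0.258). It is also marked as significant in the authors' deposited table. The part of such cells in the differences above was not tested.

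Perivascular and other macrophage genes had a summed FPKM of 344 to 423 in the GFP libraries and 286 to 315 in the wild-type libraries, without overlap. Of 10 tested members 0 were called (1 above and 0 below 0 unadjusted, and 4 above without GFP replicate 3). Over all tested genes 0.079% were called, 7.24% were above and 5.85% below 0 unadjusted, and 20.6% did not overlap. Stab1, a scavenger receptor, made up most of the sum, at 313, 282 and 288 against 220, 198 and 232 FPKM (log2 difference 0.44, SE 0.11, limma adjusted p = 0.253). Other members varied in level, with Cd163 under 1 FPKM in all 6 libraries, and Mrc1 at 13.9, 13.9 and 5.65 against 10.1, 10.2 and 10.1 FPKM. Pf4 had 25.5, 17.7 and 9.93 against 12.2, 14.3 and 18.02 FPKM, with overlapping groups. For Cd163, Mrc1 and Pf4, GFP replicate 3 was the lowest of the 6 libraries. Of the endothelial list 8 of 19 genes were tested and 0 called (0 unadjusted, sum 272 to 325 against 300 to 408 FPKM). The neuronal list had 3 tested of 24 (8.05 to 19.1 against 10.2 to 15.2 FPKM), blood leukocyte genes 1 of 25 (37.97 to 53.6 against 38.4 to 77.5), and choroid plexus and ependymal genes 2 of 10 (28.9 to 30.6 against 24.2 to 65.5). Erythroid genes and pericyte genes were all under the filter, with sums of at most 1.97 and 3.46 FPKM. Of 6 tested genes known to vary in copy number among inbred mouse strains, 0 were called (0 unadjusted), with a median of -0.01. With 0.079% of all tested genes called, a count of 0 of 6 does not show that they were alike. A difference in strain background was not tested. Nnt, a mitochondrial transhydrogenase that is truncated in 1 C57BL/6 substrain, had 32.7, 32.3 and 27.7 against 33.8, 30.9 and 30.5 FPKM.

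**Figure D4:**
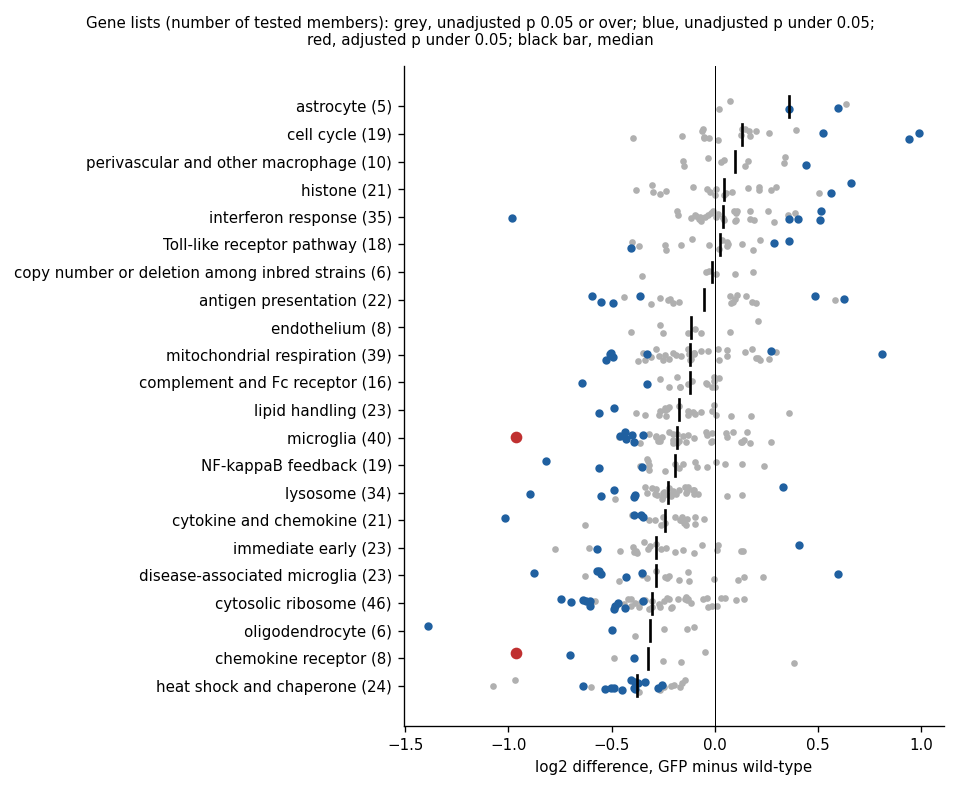
Log2 differences (GFP minus wild-type, horizontal axis) of the tested members are shown for each gene list with at least 5 of them, with the number tested in brackets and the median as a black bar. Heat shock and chaperone genes have the lowest median of the lists shown (-0.38) and astrocyte genes the highest (0.36), and Cx3cr1 is the only member at an adjusted p under 0.05 (red, in 2 lists).

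The authors' deposited comparison table called more genes and shared 1 call with limma. Of 12078 autosomal rows with a completed test it marks 34 as significant (0.282%), 23 higher in wild-type and 11 higher in GFP microglia. These names were taken from that table and are not by the naming rule. Cx3cr1 alone was called both there and with limma, which is 11.1% of the limma calls and 2.94% of the authors' calls. Of the limma calls, only Slc25a12, Cx3cr1, Rps19-ps1 and Rps19-ps2 were matched to a completed test there. The 5 called loci under 300 bases were not matched, so a shared call could not be judged for them. Rps19-ps1 and Rps19-ps2 were lower in GFP microglia there too, without a call (q of 0.213 and 0.185). Of the 34 genes, 32 passed the filter and were tested with limma, 32 of them had the same direction and 27 had an unadjusted p under 0.05. Of all tested genes, 7.24% were above and 5.85% below 0 at that threshold. Both comparisons used the same libraries and the 34 genes were chosen for differing there, so this is not separate support.

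Many of the genes that the authors' deposited table calls higher in wild-type had their top value in 1 library. In 19 of the 23, wild-type replicate 3 was the highest of the 6 libraries, where it was so at 33.3% of all tested genes. The groups did not overlap in 16, where 20.6% of all tested genes did not. Genes chosen as higher in wild-type have a wild-type library on top and separate groups more often by that choice, so these shares are not like for like. Hspa1a, the inducible Hsp70, had 3.74, 1.27 and 2.98 FPKM in the GFP libraries and 1.86, 9.04 and 12.9 in the wild-type libraries, so wild-type replicate 1 lay within the GFP range. Ccl4, an inflammatory chemokine, had 48.4, 34.3 and 62.7 against 61.4, 119 and 121 FPKM. Tmed9, a cargo protein of the secretory pathway, had 5.23, 3.70 and 4.68 against 4.18, 6.10 and 19.6 FPKM. Ttr, the transthyretin made by the choroid plexus, had 7.68, 7.43 and 6.31 against 47.0, 8.60 and 30.5 FPKM, without overlap but with a wide wild-type range. Cbr3, a carbonyl reductase, differed from these in that its wild-type libraries were alike, at 9.39, 9.22 and 8.94 FPKM against 3.39, 4.42 and 4.54, with a log2 difference of -0.9995 (SE 0.14, limma adjusted p = 0.0597).

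Among the 11 genes called higher in GFP microglia in the authors' deposited table, GFP replicate 3 was the lowest of the GFP libraries in 6. The share of all tested genes where it was so is not given here. Qpct, which forms N-terminal pyroglutamate, had 26.1, 15.7 and 2.07 FPKM in the GFP libraries and 0.680, 2.57 and 2.22 in the wild-type libraries, so GFP replicate 3 was on the wild-type level. Capn11, a calpain protease gene, had 7.43, 7.15 and 1.77 against 1.69, 1.65 and 1.95 FPKM. Gnb4, a G protein beta subunit, had 2.44, 2.34 and 0.625 against 0.130, 0.0793 and 0.0877 FPKM and was not tested with limma. In Snap25, a synaptic membrane fusion protein of neurons, GFP replicate 3 was instead the highest, at 6.77 FPKM, with 1.42 and 1.55 in GFP replicates 1 and 2 and 0.233 to 0.521 in the wild-type libraries. Mki67, a proliferation marker, had 4.45, 2.06 and 2.99 against 1.38, 0.835 and 0.939 FPKM, without overlap (log2 difference 0.99, limma adjusted p = 0.244). Il7r, the receptor for interleukin 7, had 22.4, 28.2 and 25.4 against 19.8, 16.5 and 14.8 FPKM.

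**Figure D5:**
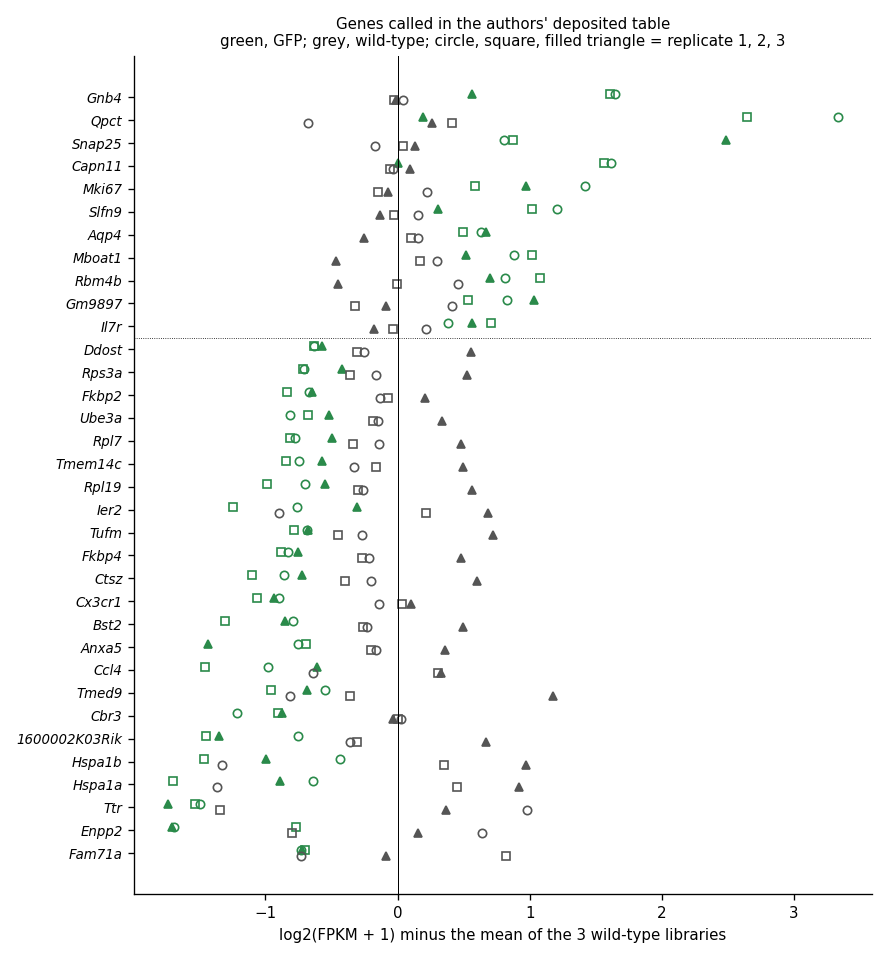
For each of the 34 autosomal genes marked in the authors' deposited table, log2(FPKM + 1) of every library is shown as its difference from the mean of the 3 wild-type libraries (horizontal axis), with GFP libraries in green, wild-type libraries in grey and replicate 3 as a filled triangle. Below the dotted line the grey triangle of wild-type replicate 3 is the rightmost point in 19 of 23 genes, and Cx3cr1 and Cbr3 are among those whose wild-type libraries lie close together.

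Called genes lay on 6 autosomes. Chromosomes 8, 9 and 14 held 2 each and chromosomes 2, 11 and 13 held 1 each, and the share of tested genes at an unadjusted p under 0.05 ran from 11.5% on chromosome 19 to 15.0% on chromosome 5. The 2 called genes on chromosome 9 were Cx3cr1 and SNORA8. The 2 on chromosome 14 were the identical Rps19 pseudogenes.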

How the data were processed

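RNA of sorted brainstem microglia from 3 GFP and 3 wild-type mice was used. The authors deposited FPKM values per gene and library. The submitters' processing notes list Cufflinks 2.0.2, Bowtie2 2.0.0, TopHat2 2.0.4 and CASAVA 1.8.2 and the mm9 build, and the annotation and the treatment of fragments with several matches are not given in the sources used here. A second table that the authors deposited holds their log2 fold changes, p-values and q-values. FPKM of loci shorter than the fragments depends on an assumed effective length.

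Genes reaching an FPKM of 1 in 3 or more of the 6 libraries were fitted on log2(FPKM + 1) with limma 3.58.1 (trend and robust, statmod 1.5.0) in R 4.3.3, over the whole table of 11814 such genes, two-sided, with Benjamini-Hochberg adjustment over all of them. Autosomal genes are printed, and an adjusted p under 0.05 is called higher or lower. This scale understates changes of low genes. The fit was tested on simulated data. Tables and figures used Python 3.11.15, pandas 2.3.3, numpy 2.4.6 and matplotlib 3.10.9.

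Groups and sexes were read from the labels. All 10 FPKM columns matched a label. Members and gene lists (27 lists, 630 genes) were chosen with earlier results of these data known, so a list's counts are a description. Ahsp, Hmgcs1 and Ms4a4a had no match and are not analysed here. Genes named are Cx3cr1, up to 12 called genes in each direction with separate groups and a mean of at least 5 FPKM (predicted genes, pseudogenes and small RNAs left out), and up to 3 most abundant members and the called members of each list, some of which are not reported here. Other names come from the authors' table or are marked in the text, and markers and neighbours cited as examples were picked with their values in view. For each result up to 18 alternatives were run, covering the pseudocount, filters, scaling, sex, adjustment, a replicate block, each library left out and, added after seeing the data, loci of at least 300 bases only.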

Additional observations from a re-analysis of the deposited data

How the results depend on the processing

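Among autosomal genes, 2 were called higher and 7 lower in GFP microglia. The number higher was 5 with sex as a covariate, 6 with male libraries only, 6 with a replicate block and 1 with loci of at least 300 bases (chosen after seeing the data), and the number lower was 4 with no filter on low values, 4 with sex as a covariate and 3 with loci of at least 300 bases. With 1 library left out, 2 to 7 genes were higher and 4 to 8 lower. The block by replicate number kept all 9 calls and added 4, and the deviations of same-numbered libraries correlated at 0.14, 0.00 and 0.22, with GFP replicate 2 closest to wild-type replicate 1, so the numbers were not taken as pairs. The count for microglial genes and for chemokine receptors (1, Cx3cr1) became 0 with sex as a covariate and with male libraries only, and 0 to 1 with 1 library left out. That for ependymal and choroid plexus genes (0) was 0 to 1 with 1 library left out, the 1 being Ttr. Calls within 20 Mb of Cx3cr1 (1, itself) became 0 with sex as a covariate. Snord13, SNORA17, SNORA8 and Gm11694 kept their calls under every alternative that tested them. They were at 0 in every GFP library and passed the filter only through the wild-type libraries, so this adds no support. Snora68 kept its call under all but male libraries only, and Slc25a12 under all but male libraries only and sex as a covariate. Cx3cr1 kept its call in 11 of 18, and its log2 difference ran from -1.06 to -0.91. Of 127 other genes followed, 124 were called under no alternative, and no direction of a called gene was reversed. Where calls were lost with fewer libraries, fewer samples entered the fit. With other settings the cause was not tested.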

Other observations

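Snrpe, a core spliceosome protein gene chosen after its values were seen, stood far above its usual level in 1 library. It had 29.0, 23.2 and 9348 FPKM in the GFP libraries and 32.01, 39.1 and 52.8 in the wild-type libraries, so GFP replicate 3 alone carried the log2 difference of 2.19 (limma adjusted p = 0.754). Among tested autosomal genes of at least 300 bases, Snrpe and Qpct were the 2 whose log2 difference was beyond 2 in size.

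Other proliferation genes did not all lie on the side of Mki67. Top2a, a topoisomerase of dividing cells, had 4.36, 1.79 and 3.20 FPKM in the GFP libraries and 0.873, 0.998 and 1.36 in the wild-type libraries, without overlap (log2 difference 0.94, limma adjusted p = 0.252). Pcna, a DNA replication clamp, had overlapping groups and a lower GFP mean, at 40.4, 33.6 and 39.8 against 37.8, 40.4 and 49.5 FPKM. Over the tested cell cycle genes, 12 were above and 7 below 0. Top2a and Pcna were chosen after their values were seen.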
